A study of Homo sapiens with 6 samples.

Results

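The genes described here encode the proteasome: the subunits of its 20S core and 19S cap, the activators and the inhibitor that dock onto the core, and the chaperones that assemble it. They were taken as every symbol in the expression table that begins with PSM, a letter from A to G and a digit, without the immunoproteasome subunits PSMB8 and PSMB9. The rule gave 47 of the 20111 genes in the table, of which 46 are proteasome genes. The remaining symbol, PSMC3IP, encodes a partner of the recombinases in homologous recombination and is kept apart below. Of the 46 proteasome genes, 44 passed the filter on low values and were tested. The other two, PSMA8, the germ-cell alpha subunit, and PSMB11, the beta subunit of the thymus, were listed at 0 in every library.

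The cells were MDA-MB-231, a human triple-negative breast cancer line that lacks the oestrogen receptor, the progesterone receptor and HER2 amplification. They were transfected with siSHC1, against the adaptor protein SHC1 that links receptor tyrosine kinases to RAS, with siNCOA3, against the nuclear receptor coactivator NCOA3 (also called SRC-3 or AIB1), or with siControl, and RNA was taken 48 h or 24 h later. There was 1 library for each siRNA and time, 6 in all, so the 48 h and 24 h libraries of an siRNA stand in for its replicates. No label tells whether separate cultures were used, and no source used here gives what sequence each siRNA had. Each target has 1 siRNA label, so an effect of the target and any other effect of that siRNA cannot be told apart. In bulk RNA, fewer cells of a type and less RNA per cell cannot be told apart either.

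The 20S core is a barrel of stacked alpha and beta rings, and the beta subunits PSMB5, PSMB6 and PSMB7 carry its peptidase sites. The 19S cap has a base, whose ATPases unfold the substrate, and a lid, whose subunit PSMD14 removes the ubiquitin chain before the protein enters the core. Transcription of most subunits is known to be driven together by the factor NFE2L1 (NRF1) when the proteasome cannot keep up. A separate set, among them PSMB10, PSME1 and PSME2, is induced by interferon. PSME3 (PA28γ, REGγ) is a nuclear activator that opens the core for proteins without ubiquitin, and the NCOA3 protein is one of its best-known substrates.

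The libraries had similar FPKM totals, which do not measure library size, and cell markers were read mostly as means over the 6 libraries. Values are FPKM (fragments divided by gene length and by the mapped fragments of the library) as deposited, and they summed to between 495518 and 553073 per library. Read depth is not given by FPKM, so no counting error could be attached. NCOA3 was 1.85 FPKM at 48 h and 1.72 at 24 h in siNCOA3 cells, against 11.4 and 10.3 in siControl cells. SHC1 was 15.5 and 14.7 FPKM in siSHC1 cells, against 119 and 103 in siControl cells. All 5 genes listed as present in MDA-MB-231 cells were found (VIM averaged 956 FPKM, CD44 542 and the keratin KRT18 184). ESR1 averaged 0.0249 and PGR 0. ERBB2, listed as low, averaged 31.0 FPKM. The luminal list was mixed, with KRT8 at 254, EPCAM at 7.69, GATA3 at 5.05 and FOXA1 at 0.00695. No marker of blood or endothelium exceeded 0.372 FPKM in any library. PECAM1 was not analysed here.

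The promoters of the proteasome genes were searched for 3 motifs on both strands, in the 250 bases before the start given by RefSeq for GRCh38.p14, which held 40 of the 46 genes. The core of the antioxidant response element, TGANNNNGC, to which NFE2L1 and NFE2L2 with small MAF proteins bind, was present in 21 of 40 (52.5%), against 35.4% of all 27305 promoters. The CCAAT box, CCAAT, was present in 17 of 40 (42.5%), against 33.0%. The core of the interferon-stimulated response element (GAAA and, after any 2 bases, GAAA again) was present in 5 of 40 (12.5%), against 3.07%, in PSMA4, PSMB4, PSMB10, PSME2 and PSMG4. Among the 8827 promoters of tested genes, the 3 motifs were present in 35.7%, 35.3% and 2.39%, in the same order. The 40 include PSMA8 and PSMB11, which were not tested. The motifs do not overlap in the promoters printed here.

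The promoters of PSME3 and PSMD2, the 2 genes called below, of PSME1 and PSME2, which form the PA28 ring, and of the catalytic subunit PSMB5 are shown to set these motifs beside the values. Each runs 5′ to 3′ on the strand of the gene and ends at the base before the start, and capitals mark the matches. They lie at chr17:42833147-42833396 on the plus strand (PSME3), chr3:184298991-184299240 plus (PSMD2), chr14:24135944-24136193 plus (PSME1), chr14:24146611-24146860 minus (PSME2) and chr14:23035221-23035470 minus (PSMB5).
PSME3: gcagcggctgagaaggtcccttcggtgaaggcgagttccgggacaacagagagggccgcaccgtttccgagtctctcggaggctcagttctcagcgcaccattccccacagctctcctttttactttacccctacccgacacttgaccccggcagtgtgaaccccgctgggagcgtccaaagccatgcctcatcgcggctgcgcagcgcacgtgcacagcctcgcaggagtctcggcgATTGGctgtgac
PSMD2: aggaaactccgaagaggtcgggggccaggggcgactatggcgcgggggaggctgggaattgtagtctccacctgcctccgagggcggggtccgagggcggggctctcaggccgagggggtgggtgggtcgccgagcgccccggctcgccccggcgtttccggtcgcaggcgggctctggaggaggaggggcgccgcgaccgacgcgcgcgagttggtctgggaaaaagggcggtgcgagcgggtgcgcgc
PSME1: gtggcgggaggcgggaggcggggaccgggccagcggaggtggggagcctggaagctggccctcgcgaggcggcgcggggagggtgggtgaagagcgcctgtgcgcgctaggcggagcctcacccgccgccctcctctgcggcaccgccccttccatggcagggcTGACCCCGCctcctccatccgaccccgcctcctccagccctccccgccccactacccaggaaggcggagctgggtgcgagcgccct
PSME2: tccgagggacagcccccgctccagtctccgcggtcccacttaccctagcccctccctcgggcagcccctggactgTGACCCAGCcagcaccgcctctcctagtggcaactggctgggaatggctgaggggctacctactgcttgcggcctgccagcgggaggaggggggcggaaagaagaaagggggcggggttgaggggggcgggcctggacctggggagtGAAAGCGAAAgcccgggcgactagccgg
PSMB5: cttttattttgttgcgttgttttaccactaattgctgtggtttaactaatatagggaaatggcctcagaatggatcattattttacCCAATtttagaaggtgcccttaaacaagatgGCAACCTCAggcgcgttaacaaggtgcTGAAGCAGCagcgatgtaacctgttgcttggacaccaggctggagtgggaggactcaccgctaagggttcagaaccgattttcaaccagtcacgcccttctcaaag
PSMD2 held none of the 3 motifs in this window. PSME3 held a CCAAT box on the reverse strand, 12 bases before the start. PSME1 and PSME2 each held 1 antioxidant core, and PSME2 also held the interferon core, 28 bases before the start. PSMB5 held 2 antioxidant cores and a CCAAT box, and its level was 124 FPKM at 48 h and 127 at 24 h with siSHC1, 126 and 126 with siNCOA3, and 108 and 114 with siControl. A match is a run of letters and says nothing on binding in these cells.

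All 44 tested genes were expressed in every library, at means between 20.8 and 362 FPKM (median 86.4). FPKM are per length, so levels can be set side by side between genes. In the alpha ring, PSMA7 was the highest (276 ± 12.2 FPKM, SD over 6 libraries) and PSMA5 the lowest (87.4 ± 6.88). In the beta ring, PSMB1 led (174 ± 9.94), and PSMB10, the interferon-inducible subunit that can take the place of PSMB7, was lowest (26.4 ± 3.24). The 3 catalytic beta subunits were of like level, with means of 121 for PSMB5, 106 for PSMB6 and 129 for PSMB7.

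The 19S base held the highest of all, PSMD2 (RPN1), the scaffold that receives ubiquitin-like domains (362 ± 43.0 FPKM). Its lowest was PSMD1 (RPN2), the other large scaffold (50.1 ± 5.77). In the lid, PSMD8 (RPN12) averaged 137 ± 11.1 FPKM and PSMD12 (RPN5) 34.4 ± 3.90. Among the activators, PSME2 (PA28β) averaged 143 ± 13.8 FPKM and PSME4 (PA200) 20.8 ± 1.27, the lowest of the 44. The assembly chaperones were low as a class, with a median of 30.6 FPKM against 120 in the alpha ring, 125 in the beta ring, 85.2 in the base, 75.3 in the lid and 112 among the activators and the inhibitor. PSMD9 was the highest chaperone (68.7 ± 5.05) and PSMD5 the lowest (26.6 ± 2.23).

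When the 44 genes were ordered by mean level, the ranges over the 6 libraries overlapped in 39 of the 43 neighbouring pairs, so most of the order is not fixed by these data. The ranges were separate between PSMD2 and PSMA7, between PSMA7 and PSMB1, between PSMD3 and PSMC2, and between the chaperones PSMG2 and PSMG1. The highest mean was 17.5 times the lowest over the 44 genes, and 7.23 times within the base.

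**Figure D1:**
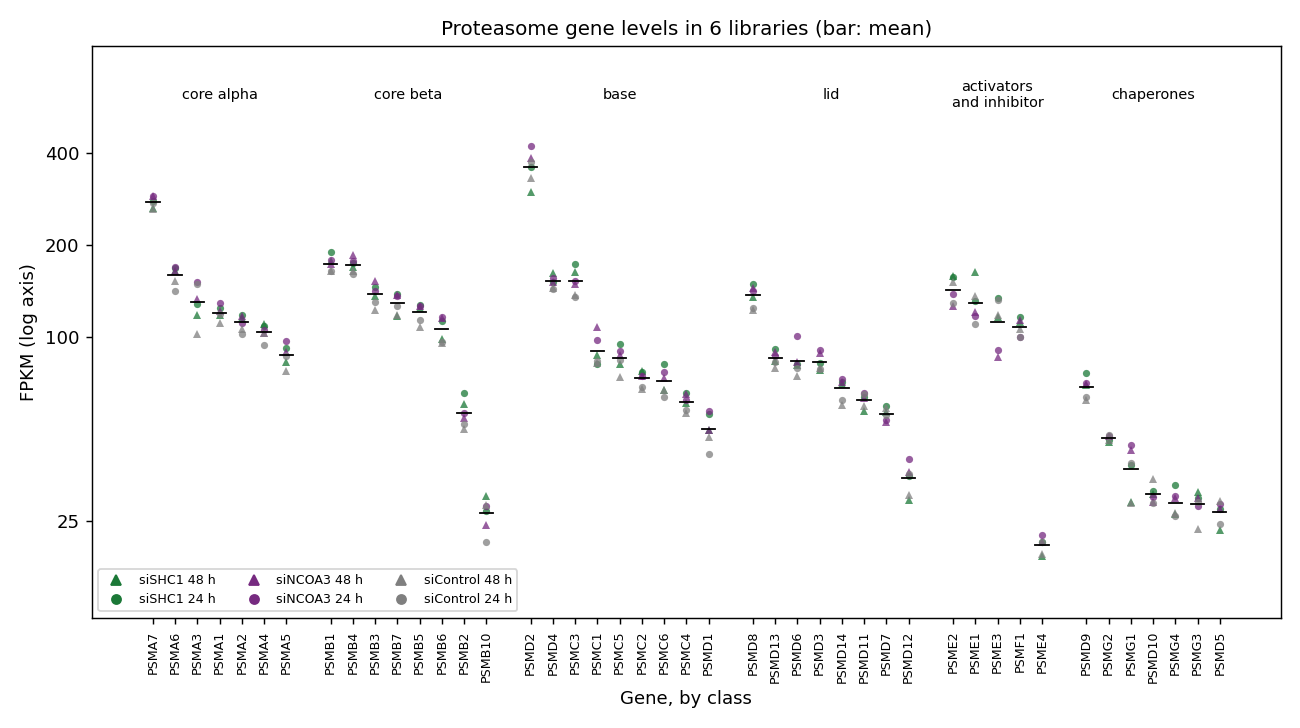
Level of each of the 44 tested proteasome genes (FPKM, log axis) in the 6 libraries, grouped by structural class. Points are libraries (triangles 48 h, circles 24 h) and the short bar is the gene's mean. PSMD2 stands highest at 362 FPKM and PSME4 lowest at 20.8, and the chaperones lie mostly below the core and cap subunits.

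The proteasome genes together took between 0.764% and 0.851% of all FPKM in a library. Their summed level was 4344 FPKM at 48 h and 4616 at 24 h in siSHC1 cells, 4502 and 4600 in siNCOA3 cells, and 4115 and 4215 in siControl cells. As a share of all FPKM this was 0.785% and 0.835% with siSHC1, 0.831% and 0.844% with siNCOA3, and 0.764% and 0.851% with siControl. The siControl cells thus held both the lowest and the highest share.

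Single genes spread less, at the median, than tested genes as a whole. The median SD of log2 level over the 6 libraries was 0.11 for the proteasome genes, against 0.16 for all 11690 tested genes and 0.14 for the 4305 with a mean of at least 20 FPKM. PSMA4, an alpha-ring subunit, varied least (SD 0.06). PSME3 varied most (0.29), followed by PSMG1 and PSMA3.

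**Figure D2:**
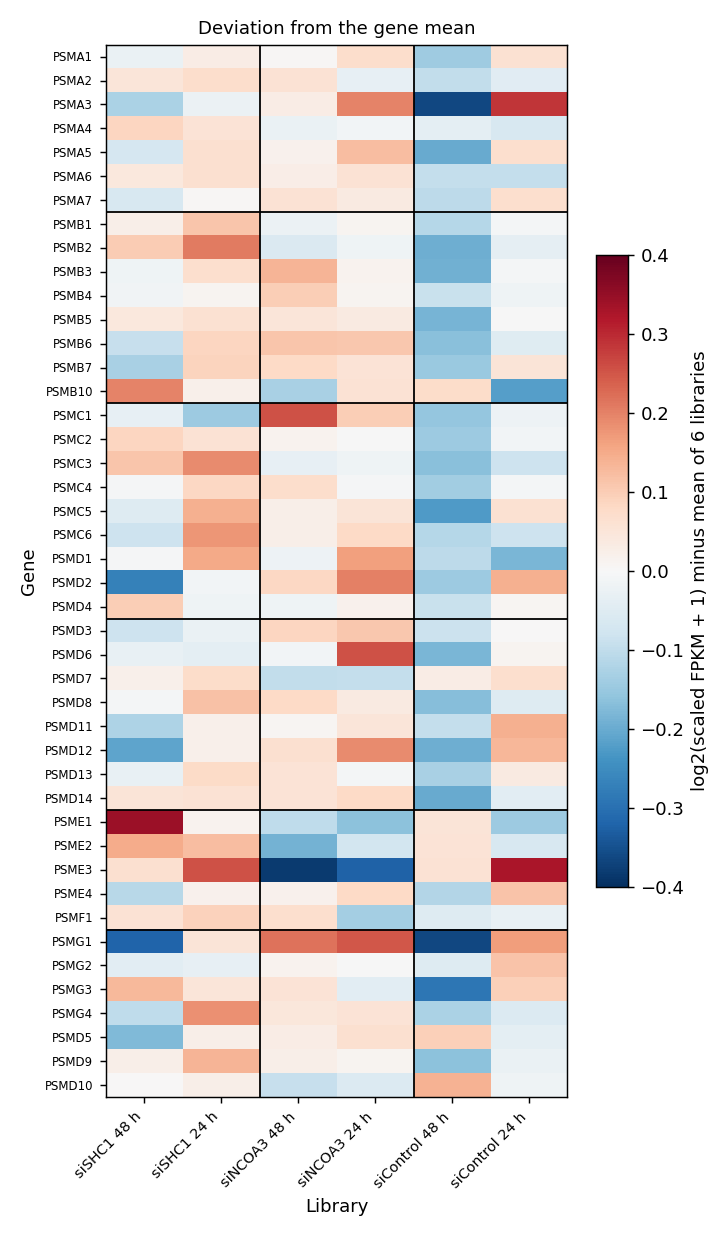
Level of each of the 44 genes in each library, as log2(scaled FPKM + 1) minus the gene's mean over the 6 libraries. Columns are siSHC1, siNCOA3 and siControl with 48 h left of 24 h, and rows are ordered by class. The siControl 48 h column is the lowest of the 6 for 30 genes, and PSME3 is low in both siNCOA3 columns.

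The clearest change concerned PSME3, the activator that acts on the NCOA3 protein. It stood at 116 FPKM at 48 h and 134 at 24 h in siSHC1 cells, and at 85.8 and 90.3 FPKM in siNCOA3 cells. In siControl cells it was 118 and 132 FPKM, close to the siSHC1 libraries of the same time. Both siNCOA3 libraries were below the 4 others, with no overlap at either time.

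PSME3 was higher with siSHC1 than with siNCOA3 by 0.51 ± 0.08 on the log2 scale (a fold of 1.42; limma, Benjamini-Hochberg adjusted p = 0.0155), and the difference was 0.44 at 48 h and 0.58 at 24 h. Set against siControl, siNCOA3 cells had 0.685 of its level (-0.55 ± 0.08), -0.44 at 48 h and -0.65 at 24 h. With an adjusted p of 0.117 in limma this did not pass the threshold of 0.05, although the unadjusted p was 0.000269. Between siSHC1 and siControl the difference was -0.04 ± 0.08 (adjusted p = 0.814 in limma). The comparisons with siControl and with siSHC1 use the same 2 siNCOA3 libraries and are not independent.

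The call between siSHC1 and siNCOA3 was lost without the siNCOA3 24 h library (0.42, adjusted p = 0.0561), without the siSHC1 48 h library (0.52, adjusted p = 0.0527), without the filter on low values (adjusted p = 0.0903) and without the term for time (adjusted p = 0.0588), all in limma. Over all 15 alternatives the difference lay between 0.42 and 0.60, and it passed in 11.

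PSME3 was the 1 gene of the activator class that was low with siNCOA3 at this size. PSME1 and PSME2 had smaller fitted differences from siControl (-0.08 ± 0.08 and -0.13 ± 0.08) and were not called. After scaling, they differed by -0.16 and -0.24 at 48 h, but by only -0.01 and -0.02 at 24 h. In FPKM as deposited, both were above siControl at 24 h (117 against 110 and 138 against 129). Of the 5 genes of the class, 2 had a fitted change above 0 with siNCOA3, PSME4 (0.05) and PSMF1 (0.00). PSME4, which caps the core in the nucleus, stood at 19.1 FPKM at 48 h and 21.2 at 24 h in siSHC1 cells, 21.2 and 22.4 in siNCOA3 cells, and 19.4 and 21.3 in siControl cells. PSMF1 (PI31), known as an inhibitor of the core in vitro, was 112 and 116 FPKM with siSHC1, 114 and 100 with siNCOA3, and 106 and 100 with siControl. For PSMF1 the siSHC1 libraries were above the siControl libraries and the siNCOA3 libraries spanned both, for PSME4 the ranges of the siRNAs met, and neither was called in any comparison.

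PSME3 also holds a 7-base word whose carriers as a group had a lower median after siNCOA3. Across 10910 tested genes with a 3′ UTR of at least 30 bases in GENCODE release 29, this word, GTCAAGA, which also lies in the NCOA3 transcript, occurred in 9.40%. The median log2 change with siNCOA3 against siControl was -0.05 in genes that hold the word and 0.00 in those that do not. The word had been found in an earlier search of the same fold changes, so this is a description and no test. It occurred in 2 of the 44 proteasome genes, PSME3 and the beta subunit PSMB2, or 4.55%. The word is shown in capitals in the 26 bases around it, in the 3′ UTR of PSME3 and PSMB2 and upstream of the 3′ UTR in NCOA3.
PSME3: ttttaccatGTCAAGAaattattaaa
PSMB2: gatcacgagGTCAAGAgagcgagacc
NCOA3: ctagctcaaGTCAAGAgaaagaccct
PSMB2 carries the word and differed by 0.08 with siNCOA3, above siControl, where PSME3 differed by -0.55. Whether the word belongs to the siRNA, and whether it has a part in the PSME3 value, was not tested. The search used the longest annotated 3′ UTR of each gene, and whether these cells make that form was not tested either.

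The corresponding word for siSHC1, GCCCATC, lies in the SHC1 transcript and in the 3′ UTR of 8.85% of the same genes, with a median log2 change of -0.12 with the word and 0.01 without it. This word also came from an earlier search of the same fold changes, so its medians are a description and no test. Among the proteasome genes GCCCATC occurred in PSMA4 alone, 1 of 44. It is in capitals in the 3′ UTR of PSMA4 and upstream of the 3′ UTR in SHC1.
PSMA4: tgaacagggGCCCATCactaatagca
SHC1: atccctgggGCCCATCctgcctcctc
PSMA4 was 110 FPKM at 48 h and 109 at 24 h in siSHC1 cells, against 103 and 94.0 in siControl cells, so the libraries with the siRNA were the higher ones (0.12 on the log2 scale, not called). Its word starts at base 3258 of the longest annotated 3′ UTR (3475 bases). Whether the PSMA4 RNA measured here reaches that far was not tested.

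PSMD2, the base scaffold, was the other gene called. It stood at 298 FPKM at 48 h and 361 at 24 h in siSHC1 cells, 385 and 422 in siNCOA3 cells, and 332 and 376 in siControl cells. At each time the order was siNCOA3, siControl, siSHC1 from high to low, and the 2 siSHC1 libraries lay below both siNCOA3 libraries.

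PSMD2 fell by 0.28 on the log2 scale with siSHC1 against siNCOA3 (SE 0.07, a fold of 0.823; limma adjusted p = 0.0481). The difference was -0.35 at 48 h and -0.21 at 24 h. Against siControl the differences were -0.14 ± 0.07 with siSHC1 (limma adjusted p = 0.237) and 0.14 ± 0.07 with siNCOA3 (limma adjusted p = 0.537). The call was at the edge of the threshold. It passed in 5 of 15 alternatives (limma adjusted p between 0.0355 and 0.243) and was lost when any library other than siNCOA3 24 h was left out, with differences between -0.31 and -0.20 in those fits.

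**Figure D3:**
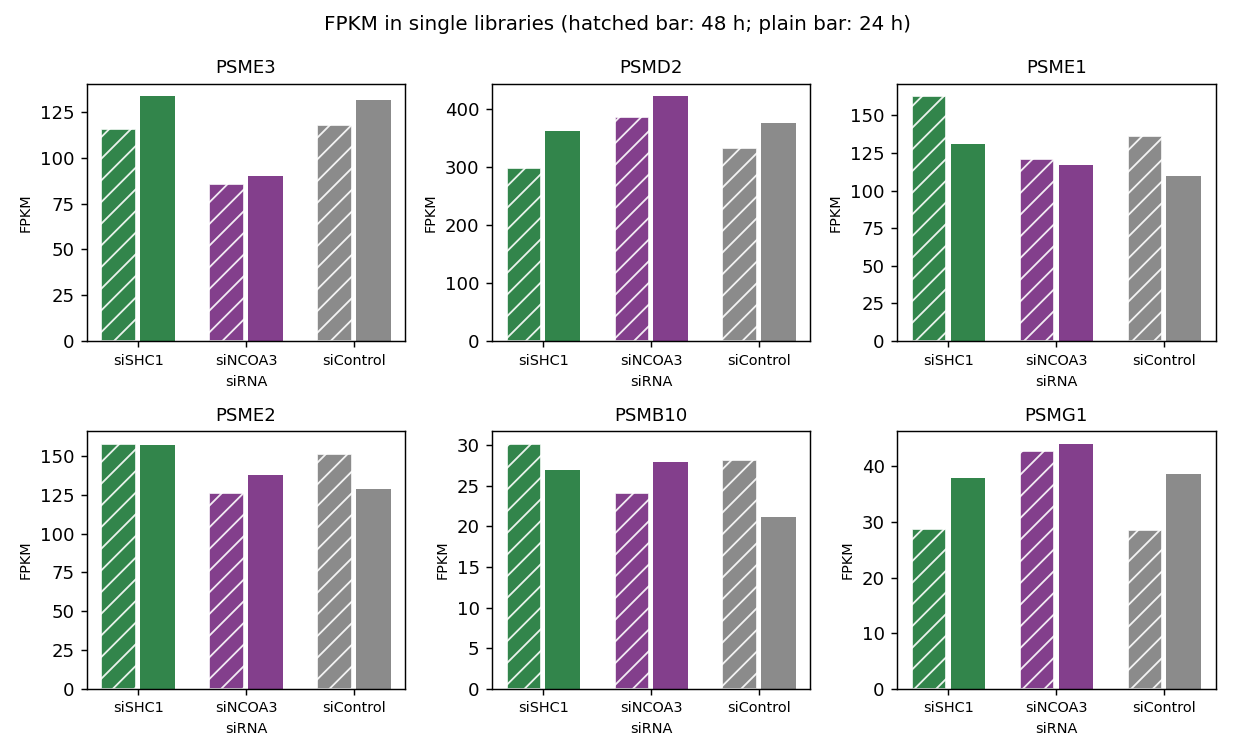
FPKM of 6 proteasome genes in siSHC1, siNCOA3 and siControl cells, with 48 h (hatched) left of 24 h (plain). Each bar is 1 library and starts at 0. PSME3 is lowest in both siNCOA3 libraries (85.8 and 90.3 FPKM), and PSMD2 is lowest in the siSHC1 48 h library (298 FPKM).

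In siSHC1 against siNCOA3, 2 of the 44 proteasome genes were called, PSME3 higher and PSMD2 lower, that is 4.55%, where 9.74% of all tested genes were called (5.35% higher and 4.40% lower). The share among proteasome genes is not above that of the transcriptome. The median log2 difference was -0.002 and 22 of 44 genes were above 0, against 50.6% of all tested genes. By class, the medians were -0.04 in the alpha ring, -0.02 in the beta ring, 0.005 in the base, -0.05 in the lid, -0.01 among chaperones and 0.26 among the 5 activators. At an unadjusted p under 0.05, 5 were higher and 4 lower, beside 15.8% and 13.6% of all tested genes.

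PSMC1 (RPT2), whose tail opens the gate of the core, came next among the subunits. It was 87.4 FPKM at 48 h and 81.7 at 24 h in siSHC1 cells, against 108 and 97.8 in siNCOA3 cells, without overlap (-0.27 ± 0.09, limma adjusted p = 0.114). GENCODE names 13 pseudogenes after PSMC1, and reads shared with them could move its value. PSMG1 (PAC1), a chaperone of the alpha ring, was 28.8 and 38.0 FPKM against 42.7 and 44.1 (-0.37 ± 0.13, limma adjusted p = 0.11). Its 48 h libraries of siSHC1 and siControl were alike and low (28.8 and 28.5), and the siNCOA3 libraries were the highest at each time. The difference was -0.58 without the siNCOA3 24 h library (limma adjusted p = 0.0492) and -0.15 without the siNCOA3 48 h library (limma adjusted p = 0.551).

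The interferon-inducible genes PSMB10, PSME1 and PSME2 were singled out after their values were seen, because the activator class stood apart. PSME1 (PA28α) was 163 FPKM at 48 h and 131 at 24 h in siSHC1 cells, 121 and 117 in siNCOA3 cells, and 136 and 110 in siControl cells. PSME2, its partner in that ring, was 158 and 157 FPKM with siSHC1, 126 and 138 with siNCOA3, and 151 and 129 with siControl. For both genes the siSHC1 libraries were above the siNCOA3 libraries without overlap, while the siControl libraries overlapped with one or the other.

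The difference of siSHC1 from siNCOA3 was 0.31 ± 0.08 for PSME1 (limma adjusted p = 0.0669) and 0.26 ± 0.08 for PSME2 (limma adjusted p = 0.0787), so neither was called. PSMB10 was 30.2 and 26.9 FPKM with siSHC1, 24.1 and 27.9 with siNCOA3, and 28.2 and 21.2 with siControl, and its groups overlapped (0.15 ± 0.13, limma adjusted p = 0.483). PSME1 overlaps EMC9 and PSME2 overlaps RNF31 on the opposite strand in GENCODE, 2 pseudogenes are named after PSME2, and whether strand was used in quantification is not given in the sources used here.

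After siSHC1, none of the 44 proteasome genes was called against siControl in limma, where 6.42% of all tested genes were called (3.11% higher and 3.32% lower). At an unadjusted p under 0.05, 3 were higher and 0 lower, beside 14% and 12.3% of all tested genes. The changes lay between -0.14 and 0.27 on the log2 scale. Their median was 0.10, against 0.004 over all genes, and 30 of 44 were above 0, or 68.2%, against 50.7%. The beta ring had all 8 genes above 0 (median 0.12), the base 7 of 9 (0.12), the alpha ring 5 of 7 (0.06), the lid 4 of 8 (0.02), the activators 3 of 5 (0.11) and the chaperones 3 of 7 (-0.04).

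PSMC3 and PSMB2 had the largest differences. PSMC3 (RPT5), a base ATPase, was 163 FPKM at 48 h and 174 at 24 h in siSHC1 cells, against 137 and 135 in siControl cells. Both siSHC1 libraries were above both siControl libraries (0.27 ± 0.07, limma adjusted p = 0.0652). PSMB2, a beta subunit without peptidase activity, was 60.2 and 65.6 FPKM against 49.8 and 51.8 (0.27 ± 0.08, limma adjusted p = 0.0915). The lid subunit PSMD8 was 135 and 149 against 123 and 124 FPKM (0.16 ± 0.08), and PSMD9, a chaperone of the base, 69.5 and 76.1 against 62.3 and 63.6 (0.17 ± 0.08), both without overlap and neither called. PSME1 differed by 0.22 ± 0.08 (limma adjusted p = 0.16), with the siSHC1 24 h library (131) below the siControl 48 h library (136).

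After siNCOA3, again none of the 44 was called against siControl in limma. Only 0.111% of all tested genes were called in this comparison, all of them lower, so a count of 0 is close to the background here. At an unadjusted p under 0.05, 3 proteasome genes were higher and 1, PSME3, lower, beside 4.6% and 5.89% of all tested genes. The core and cap subunits lay to the same side: 31 of the 32 were above 0, with PSMD7 the exception, and over all 44 genes 38 were above 0, or 86.4%, against 49.8% of all tested genes. The sizes were small, with a median of 0.10 over the 44 genes (-0.001 over all genes). By class the medians were 0.09 in the alpha ring, 0.11 in the beta ring, 0.12 in the base, 0.14 in the lid, 0.10 among chaperones and -0.08 among the activators.

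PSMB6, a catalytic subunit of the core, was 115 FPKM at 48 h and 116 at 24 h in siNCOA3 cells, against 95.6 and 96.5 in siControl cells (0.22 ± 0.08, limma adjusted p = 0.413). PSMD6 (RPN7), a lid subunit, was 83.0 and 101 against 74.3 and 79.0 FPKM (0.21 ± 0.09, limma adjusted p = 0.487). PSMC6 (RPT4), a base ATPase, was 73.2 and 77.0 against 67.2 and 63.7 FPKM (0.15 ± 0.09). In FPKM as deposited, the siNCOA3 libraries of these 3 genes lay above both siControl libraries, and none was called. For PSMD6, with siNCOA3 48 h at 83.0 and siControl 24 h at 79.0, the groups overlapped after scaling (factors 1.01 and 0.947). PSMD7 (RPN8), the partner of PSMD14 in the lid, lay the other way, at 52.7 and 53.4 FPKM against 58.3 and 55.6 (-0.15 ± 0.08).

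The same 2 siControl libraries serve in both comparisons, and the one at 48 h was low for proteasome genes. It was the lowest of the 6 libraries for 30 of the 44 genes, or 68.2%, where 16.8% of all tested genes had their lowest value there. At 48 h, 38 of 44 genes were above 0 with siSHC1 and 37 with siNCOA3 (medians 0.12 and 0.16), whereas at 24 h it was 28 for each (medians 0.06 and 0.02). Without the siControl 48 h library, the median was 0.030 with siSHC1 (27 of 44 above 0) and 0.042 with siNCOA3 (30 of 44 above 0), and without the siNCOA3 48 h library the second was 0.043. The share of a library in these medians and any effect of the siRNAs at 48 h cannot be told apart with 1 library for each siRNA and time.

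**Figure D4:**
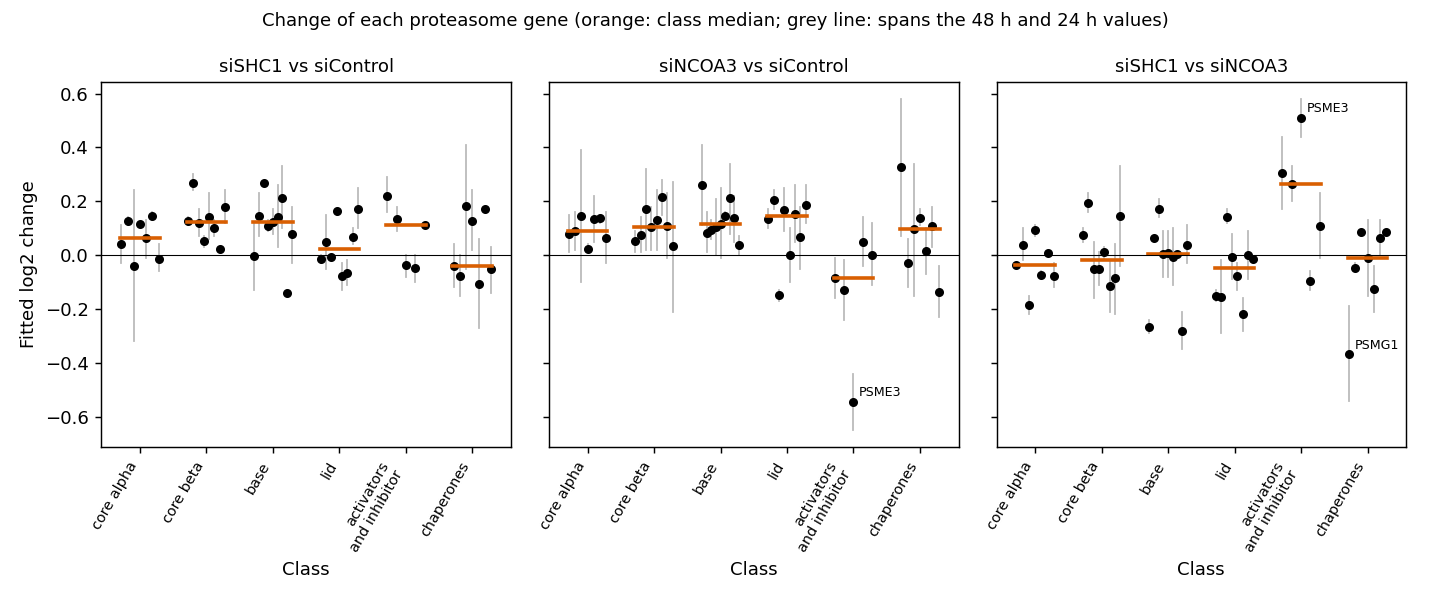
Fitted log2 change of each of the 44 genes by class in siSHC1 against siControl, siNCOA3 against siControl, and siSHC1 against siNCOA3. Grey lines span the values at 48 h and at 24 h and the orange mark is the class median. Against siControl most core and cap genes lie a little above 0, and PSME3 stands apart at -0.55 with siNCOA3 and 0.51 between siSHC1 and siNCOA3.

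Between 48 h and 24 h, none of the 44 genes was called in limma, where 0.0257% of all tested genes were (0.0171% higher and 0.00855% lower). At an unadjusted p under 0.05, 1 was higher and 6 lower at 48 h, beside 8.68% and 5.52% of all tested genes. The median log2 difference was -0.06, against 0.007 over all genes, and 9 of 44 were above 0, or 20.5%, against 52.2%. In the lid 0 of 8 genes were above 0. The median was -0.08 in siSHC1 cells, -0.02 in siNCOA3 cells and -0.13 in siControl cells, with 9, 18 and 8 genes above 0.

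PSMD12 was 29.3 FPKM at 48 h and 35.0 at 24 h in siSHC1 cells, 36.1 and 39.8 in siNCOA3 cells, and 30.3 and 35.5 in siControl cells (-0.22 ± 0.07, limma adjusted p = 0.30). PSMD2, with the values above, differed by -0.22 ± 0.06 (limma adjusted p = 0.281), lower at 48 h with each siRNA. The alpha subunit PSMA5 was 83.0 against 92.0 FPKM with siSHC1, 89.1 against 96.8 with siNCOA3 and 77.1 against 86.4 with siControl, giving -0.16 ± 0.06 (limma adjusted p = 0.338). Each of the 3 genes was lower at 48 h in all 3 siRNAs, with ranges over the siRNAs that overlapped between times.

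PSMA3, another alpha subunit, was 118 FPKM at 48 h and 128 at 24 h with siSHC1, 133 and 151 with siNCOA3, and 102 and 149 with siControl. The fitted difference was -0.30 ± 0.11 (limma adjusted p = 0.326), and the siControl cells had the widest gap, -0.64, against -0.09 with siSHC1 and -0.16 with siNCOA3. PSME1 lay the other way, higher at 48 h with each siRNA (0.20 ± 0.07, limma adjusted p = 0.31), by 0.33, 0.06 and 0.20 in siSHC1, siNCOA3 and siControl cells. GENCODE names 1 pseudogene after each of PSMA3, PSMD7, PSMD8 and PSMD12, so reads could be shared there too.

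Genes whose products work with the proteasome but that have no PSM symbol were counted beside the same shares of all tested genes, 6.42% called with siSHC1 against siControl, 0.111% with siNCOA3 against siControl, 9.74% with siSHC1 against siNCOA3 and 0.0257% between the times. At these shares, lists of 10 to 14 genes with no call are near the background. None of the 10 partners (among them the ubiquitin receptor ADRM1, the deubiquitinases USP14 and UCHL5, and the core assembly factor POMP) was called in limma in any comparison. None had an unadjusted p under 0.05 in limma, beside 26.3%, 10.5%, 29.4% and 14.2% of all tested genes in the same order of comparisons. UCHL5 and ADRM1 had the largest differences between siSHC1 and siNCOA3, -0.24 and -0.18. Of 14 genes of ubiquitin itself, its E1 enzymes, VCP with its cofactors and the shuttle factors, none was called in limma. At an unadjusted p under 0.05, 3 were higher with siSHC1 and 2 with siNCOA3, each against siControl, beside 14% and 4.6% of all tested genes. The shuttle factor UBQLN1 was 128 FPKM at 48 h and 130 at 24 h with siSHC1, 116 and 124 with siNCOA3, and 115 and 104 with siControl. Its siSHC1 libraries were above the siControl libraries without overlap, and the difference of 0.20 on the log2 scale was not called.

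In the NFE2L1 list, 2 of 10 genes (beside 3.11% of all tested genes) rose with siSHC1 against siControl and 0 fell, and the same 2 were the ones higher with siSHC1 than with siNCOA3 (beside 5.35% of all tested genes). SYVN1 (HRD1), the ligase of the endoplasmic reticulum that turns NFE2L1 over, was 49.6 FPKM at 48 h and 46.2 at 24 h in siSHC1 cells, 34.6 and 30.2 in siNCOA3 cells, and 37.5 and 30.1 in siControl cells. MAFK, a small MAF partner of NFE2L1 on DNA, was 16.8 and 18.6 FPKM with siSHC1, 13.6 and 12.6 with siNCOA3, and 12.6 and 11.6 with siControl. For both genes the siSHC1 libraries were above the 4 others without overlap.

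SYVN1 was higher with siSHC1 by 0.47 ± 0.08 against siControl (limma adjusted p = 0.028) and by 0.57 ± 0.08 against siNCOA3 (limma adjusted p = 0.0118). MAFK was higher by 0.48 ± 0.10 against siControl (limma adjusted p = 0.0418) and 0.42 ± 0.10 against siNCOA3 (limma adjusted p = 0.0464). NFE2L1 itself was 187 FPKM at both times in siSHC1 cells, 159 and 154 in siNCOA3 cells, and 166 and 133 in siControl cells; with siSHC1 it was above siControl without overlap (0.30 ± 0.08, limma adjusted p = 0.0682), but not called. Against siControl, the SYVN1 call passed in 9 of 15 alternatives and the MAFK call in 8, and each was lost when any of the 4 libraries compared was left out (limma adjusted p between 0.0823 and 0.191). Against siNCOA3, the SYVN1 call passed in 11 and the MAFK call in 4. Over the list, 8 of 10 genes were above 0 with siSHC1 against siControl (median 0.14), beside 50.7% of all tested genes. Against siNCOA3 it was 6 of 10 (median 0.13), beside 50.6%. The 2 genes below 0 against siControl were NGLY1 and DDI2. NGLY1, which removes the sugar chains of NFE2L1, differed by -0.23 ± 0.11 with siSHC1 against siControl and by -0.33 ± 0.11 against siNCOA3, and DDI2, the protease that cleaves NFE2L1, by -0.22 ± 0.13 in each, none of them called.

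PSMC3IP, matched by symbol only, was 16.4 FPKM at 48 h and 19.1 at 24 h in siSHC1 cells, 11.1 and 14.2 in siNCOA3 cells, and 11.5 and 12.1 in siControl cells. Both siSHC1 libraries were above the 4 others. It was higher with siSHC1 by 0.51 ± 0.09 against siControl (limma adjusted p = 0.0318) and by 0.47 ± 0.09 against siNCOA3 (limma adjusted p = 0.029), a fold of 1.43 and of 1.39. Each call passed in 9 of 15 alternatives, and each was lost when any of the 4 libraries it compares was left out (limma adjusted p between 0.0604 and 0.172).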

How the data were processed

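Libraries were made from Trizol RNA with a stranded mRNA kit, per the labels' protocols. The submitters' processing notes name the build hg19 and the tools Cufflinks, STAR and DESeq2, without versions or what each did. The values the authors deposited are FPKM, although the table is named for read counts, so a count test was not used. FPKM were scaled by the median of ratios over 11042 genes (factors between 0.947 and 1.02). Unless stated, ranges and overlap refer to FPKM before this scaling. The 11690 genes with at least 1 scaled FPKM in at least 2 libraries were fitted with limma 3.58.1 (R 4.3.3; trend and robust moderation) after adding a pseudocount of 1 and taking log2. This log2 scale understates changes of low genes. The model was additive in siRNA and time over 6 libraries, with 2 residual degrees of freedom. P-values were adjusted by Benjamini-Hochberg over all genes tested in each comparison, with a threshold of 0.05, and ± in a log2 difference is the standard error. They reflect no more than how these libraries differ, and that may be technical.

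The members, the lists and the rule for named genes were chosen with earlier results of these data known. The rule names called genes, filled up to 5 for each comparison with the genes whose smallest same-sign change over the library pairs was largest, the highest and lowest gene of each class, called genes of the partner lists or otherwise the 2 with the largest change, and NCOA3 and SHC1. The alternatives were other scalings, filters, pseudocounts and models, and leaving out each library. The longest 3′ UTR of each gene and gene overlaps came from GENCODE release 29 (GRCh38), and promoters from RefSeq (GRCh38.p14). GENCODE names pseudogenes after 12 of the 46 genes, and the exons of 15 overlap in position those of another gene, on the same or the opposite strand. The values of 1 gene of the partner lists are not reported here.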

Additional observations from a re-analysis of the deposited data

Results flagged for a closer look

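Among the genes named above, 2 had opposite differences at the 2 times, each of at least 0.2 on the log2 scale. PSMA3 with siSHC1 against siControl differed by 0.24 at 48 h and by -0.32 at 24 h. PSMB10 with siNCOA3 against siControl differed by -0.21 at 48 h and by 0.27 at 24 h. Each value compares 2 single libraries, and the difference between the times was not tested.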

How the results depend on the processing

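The siRNAs were compared within each time through the term for time; the labels give no replicate numbers to pair by. With siSHC1 against siNCOA3, 2 proteasome genes were called; the count was 1 without scaling, 1 without robust moderation, 1 with only the 4 libraries compared, 0 without the filter on low values and 0 without the term for time, and between 0 and 2 when 1 library was left out (0 without siSHC1 48 h). Without siNCOA3 24 h the 2 genes were PSMD2 and PSMG1 (limma adjusted p = 0.0492). The count stayed at 0 in the other comparisons under every alternative run; that of 48 h against 24 h with 4 libraries has no value by construction. The median of the proteasome genes with siSHC1 against siControl was 0.105, and 0.042 with equal library totals, where the median of all genes was -0.05 and the distance between the medians 0.09 (0.10 as reported); it was between 0.030 (without siControl 48 h) and 0.121 when 1 library was left out. The median of siSHC1 against siNCOA3 was then between -0.072 and 0.035. PSME3 with siSHC1 against siControl changed sign to 0.04 without siControl 24 h (-0.11 to 0.04 over the libraries left out). Of the other values of named genes, 418 kept direction and side of the threshold, 55 lost the call and 1 gained it. The 418 include values of genes not called as reported, which had no call to lose. All 55 losses fall on called genes, so the 418 do not measure how stable the calls are. The number of all genes called moved further. With siSHC1 against siControl it was 751, between 59 and 758 with 1 library left out and between 2 and 794 otherwise; with siNCOA3 against siControl 13, 3 to 30 and 0 to 29; with siSHC1 against siNCOA3 1139, 178 to 956 and 4 to 1249; for 48 h against 24 h 3, 0 to 46 and 0 to 4. With equal totals the split of higher to lower was 209 to 496 with siSHC1 against siControl (363 to 388 as reported) and 510 to 646 with siSHC1 against siNCOA3 (625 to 514 as reported). The causes were not tested. FPKM give no read depth, so the counting error of low genes is unknown.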
